A study of Homo sapiens with 10 samples.

Results

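The 53BP1, RIF1 and shieldin pathway was followed across 3 groups of U2OS cells through 10 genes: TP53BP1, RIF1, SHLD1, SHLD2, SHLD3, MAD2L2, RNF8, RNF168, PAXIP1 and MDC1. They were taken by symbol from a count table of 63187 genes, each symbol matched 1 Ensembl identifier, and all 10 were among the 17290 genes that passed the filter on low counts. The study asked how heat shock, and the m6A reader YTHDC1 in heat-shocked cells, bear on messenger RNAs of end joining genes. U2OS is a human osteosarcoma line, and each group had 2 RNA-seq libraries. Unheated control cells (NHS, unheated controls below) and heat-shocked control cells (HS, heated controls below) carried a control reagent and the genotype label WT, and the third group was heat-shocked and carried a reagent against YTHDC1. The titles call the reagents shCtrl and shYTHDC1, the descriptions siCtrl and siDC1, so knockdown is the word used here. How hot and how long the cells were heated, and whether they recovered, is not given in the sources used here. None of the 10 samples of the series is labelled as an unheated knockdown, so whether a knockdown change depends on heat cannot be told. The 4 methylated RNA immunoprecipitation samples of the series were not analysed here, and the methylation of these messages is not among the measurements.

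At a broken DNA end, MDC1 binds the phosphorylated histone H2AX and recruits the ubiquitin ligase RNF8, and RNF168 then adds the ubiquitin mark on which 53BP1, the product of TP53BP1, settles. 53BP1 is a scaffold: RIF1 and PTIP, the product of PAXIP1, bind its phosphorylated form. RIF1 brings shieldin, a complex of SHLD1, SHLD2, SHLD3 and REV7, the product of MAD2L2, which keeps the end from being resected and so favours end joining over homologous recombination.

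The libraries held between 13252370 and 15500743 counts, and in no group was a library counted as a copy of the other, since replicates differed by more than sampling noise (mean chi-square per gene between 1.52 and 3.41). The labels do not tie the libraries to separate cultures, and the p-values therefore reflect a spread between samples that may be only technical. YTHDC1, the targeted gene, was at 213 and 225 CPM in the unheated pair, 268 and 258 CPM in heated controls and 121 and 118 CPM after knockdown. Of 8 mesenchymal and bone lineage markers 5 averaged at least 5 CPM, with a summed level between 5173 and 5992 CPM in every library, and TWIST1 had no count. Of the 7 tested, 3 were called higher and 2 lower in the knockdown, where 27.4% of all genes tested were called higher and 27.2% lower. The called changes ran from -0.51 for SPARC to 2.56 for COL1A2, a gene of at most 2.25 CPM. Among blood cell markers CD3E and HBB had no count in any library, PTPRC reached 0.696 CPM and HBA2 6.31 CPM, and LCP1 fell in the knockdown from 16.7 ± 0.362 to 4.20 ± 0.165 CPM (log2 fold change -1.99, edgeR adjusted p = 1.78e-11). Of 5 epithelial markers 4 were called higher and 1 lower in the knockdown. EPCAM rose from 5.44 to 20.25 CPM, KRT14 from 3.08 to 11.13, CDH1 from 1.22 to 4.41 and KRT5 from 0.70 to 1.47. KRT18 fell from 396 to 298 CPM and made up most of the summed level. That sum was 331 to 339 CPM in the knockdown against 405 to 407 CPM in heated controls. The part of all these markers in the results below was not tested. CPM is a gene's read count scaled by the TMM-adjusted size of its library, and changes are log2 fold changes with their standard error (SE). Adjusted p is that of edgeR's quasi-likelihood test with Benjamini-Hochberg adjustment over all genes tested, with 0.05 as the threshold. In bulk RNA, fewer cells with a transcript and less of it per cell cannot be told apart.

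Promoter sequences are shown for TP53BP1, RIF1 and RNF168, the called members whose listed windows lie outside the gene itself, since heat is the treatment and the question of heat shock elements follows. The table had an entry for 7 of the 10 members and none for SHLD1, SHLD2 and PAXIP1. Each run is the 250 bases before the RefSeq start on GRCh38.p14, read 5′ to 3′ on the gene's strand, and capitals mark matches to the motifs named after the sequences. They lie at chr15:43510641-43510890 (minus strand) for TP53BP1, chr2:151409652-151409901 (plus strand) for RIF1 and chr3:196503769-196504018 (minus strand) for RNF168.
TP53BP1: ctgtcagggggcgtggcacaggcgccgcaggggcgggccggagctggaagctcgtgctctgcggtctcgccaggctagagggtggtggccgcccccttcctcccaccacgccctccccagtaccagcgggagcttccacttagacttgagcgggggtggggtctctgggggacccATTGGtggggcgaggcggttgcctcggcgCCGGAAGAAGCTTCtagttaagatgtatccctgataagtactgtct
RIF1: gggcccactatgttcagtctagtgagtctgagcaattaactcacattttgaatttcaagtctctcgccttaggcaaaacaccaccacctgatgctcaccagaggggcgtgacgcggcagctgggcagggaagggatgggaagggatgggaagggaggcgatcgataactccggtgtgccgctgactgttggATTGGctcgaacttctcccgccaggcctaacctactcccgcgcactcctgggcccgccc
RNF168: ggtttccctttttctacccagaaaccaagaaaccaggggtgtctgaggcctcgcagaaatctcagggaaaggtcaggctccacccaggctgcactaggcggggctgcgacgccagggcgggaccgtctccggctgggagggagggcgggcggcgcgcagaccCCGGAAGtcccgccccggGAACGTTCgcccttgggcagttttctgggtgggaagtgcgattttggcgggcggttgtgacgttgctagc
The motifs searched on both strands were both orders of a paired heat shock element, TTCNNGAA and GAANNTTC, the CCAAT box and the ETS site CCGGAAG. TP53BP1 held GAAGCTTC at 40 to 33 bases before the start, sharing its first base with an ETS match at 46 to 40 bases, and a CCAAT box in reverse at 75 to 71 bases. RNF168 held GAACGTTC at 70 to 63 bases and an ETS match at 88 to 82 bases. RIF1 held a reverse CCAAT box at 59 to 55 bases. Of the members not shown, SHLD3 held a reverse ETS match at 28 to 22 bases and RNF8 a reverse CCAAT box at 57 to 53 bases. MDC1 held CCAAT boxes at 219 to 215 and at 54 to 50 bases. MAD2L2 has 2 listed starts, whose windows both lie inside the gene's span and are not shown: chr1:11691560-11691809 (minus strand), with 81.6% G and C, held none of the 4 motifs, and chr1:11681149-11681398 (minus strand) held a CCAAT box at 231 to 227 bases. Among 35116 RefSeq promoters 5.78% held GAANNTTC, 6.62% TTCNNGAA, 32% a CCAAT box and 8.52% the ETS site in a window of the same 250 bases. These matches describe letters and say nothing of binding. Among the members' windows GAANNTTC was found in those of TP53BP1 and RNF168, and a link between the matches and the response to heat was not tested.

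TP53BP1 fell in the knockdown and was the member with the largest change. TP53BP1 (ENSG00000067369, chromosome 15, 43403061 to 43510640) stood at 128 and 136 CPM in the unheated pair, 128 and 128 CPM in heated controls and 62.1 and 59.4 CPM after knockdown. Both knockdown libraries lay below all 4 control libraries, and the libraries of each group lay close together. The knockdown left 47.6% of the level of heated controls (a log2 change of -1.07 ± 0.05, SE, with n = 2 in each group and edgeR adjusted p = 6.54e-14) and 46.1% of that of unheated controls (-1.12 ± 0.05, edgeR adjusted p = 1.19e-14). Against heated controls the fall was close in size to that of YTHDC1 itself, which was left at 45.4%. Against unheated controls YTHDC1 was left at 54.6%, and in heat shock it was called higher (log2 fold change 0.27, edgeR adjusted p = 4.44e-05). Of all genes tested 6.29% had a lower fold change than TP53BP1 in the knockdown. Heat shock alone gave TP53BP1 a log2 fold change of -0.05 with a 95% interval from -0.15 to 0.06 (edgeR adjusted p = 0.485), which as a percent change is -9.88% to 4.05%.

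TUBGCP4, a gamma-tubulin complex gene on the opposite strand, overlaps the 3′ end of the TP53BP1 span and moved as well. Its counts were 652 and 634 in the unheated pair, 659 and 733 in heated controls and 464 and 499 in the knockdown, with log2 fold changes of 0.34 in heat shock (edgeR adjusted p = 2.49e-04) and -0.62 in the knockdown (edgeR adjusted p = 7.35e-08). Whether the counting used strand is not given in the sources used here, so reads in the overlap cannot be assigned with certainty. Each TP53BP1 library held at least 854 counts, more than the TUBGCP4 count of the same library.

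**Figure D1:**
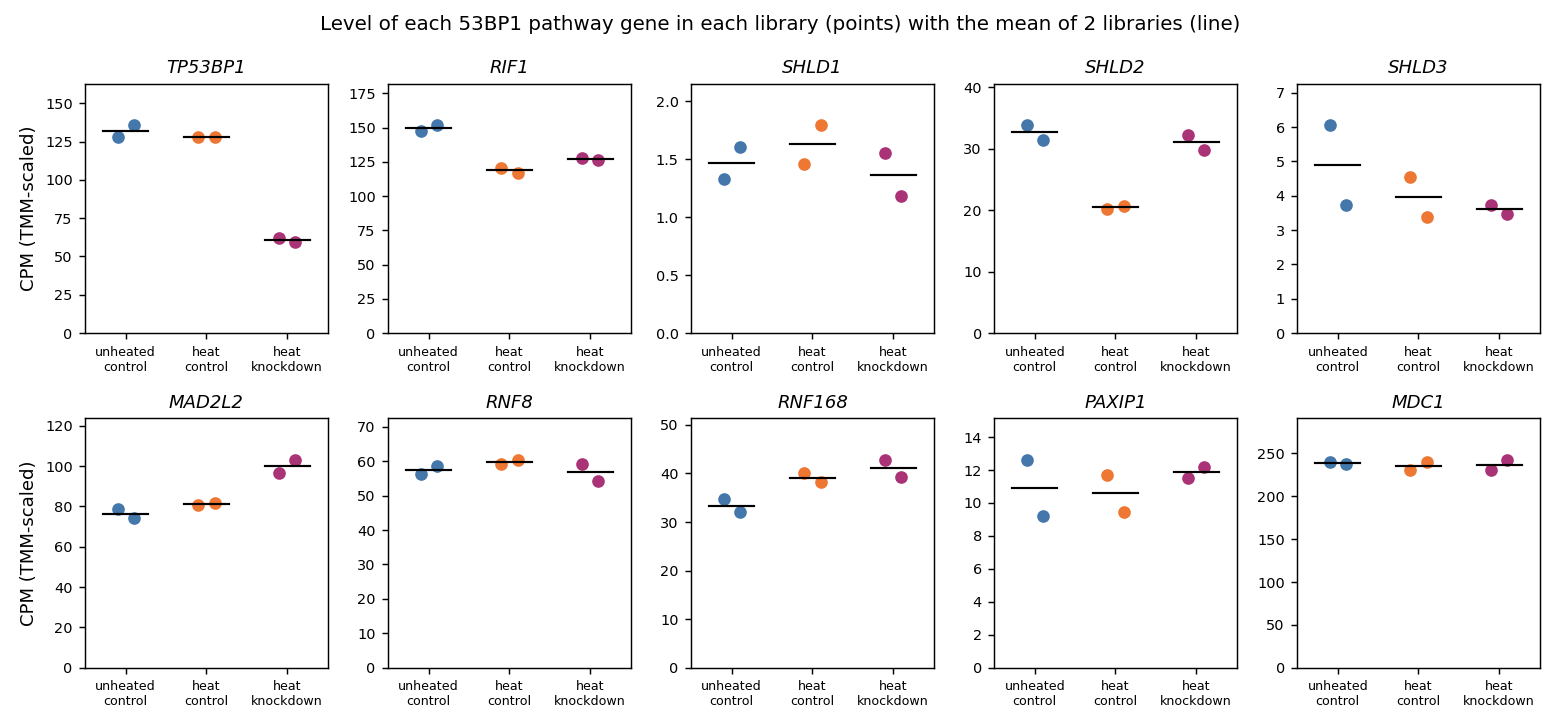
CPM of the 10 genes (vertical axes, each from 0) in the 2 libraries of each group (points) with the group mean (line). TP53BP1 stands at 62.1 and 59.4 CPM in the knockdown against 128 to 136 CPM in the controls, and SHLD2 is lowest in the heated controls, at 20.2 and 20.7 CPM.

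RIF1, the effector that links 53BP1 to shieldin, fell with heat. RIF1 (ENSG00000080345, chromosome 2, 151409902 to 151534435) was at 148 and 152 CPM in the unheated pair, 121 and 117 CPM in heated controls and 128 and 126 CPM after knockdown. The unheated libraries were the highest and the heated controls the lowest, with no overlap between any of the groups. The log2 fold change was -0.33 ± 0.05 in heat shock (edgeR adjusted p = 4.46e-06) and -0.24 ± 0.05 for the knockdown against unheated controls (edgeR adjusted p = 1.64e-04). Between knockdown and heated controls it was 0.10, with a 95% interval whose lower end was -0.0041 and upper end 0.20 (edgeR adjusted p = 0.0974), which did not pass. NEB, which overlaps the RIF1 span on the opposite strand, had between 11 and 24 counts per library.

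SHLD2, the largest shieldin subunit and the one that binds single-stranded DNA, fell with heat and stood higher in the knockdown. SHLD2 (ENSG00000122376, chromosome 10, 87094473 to 87191465) was at 33.8 and 31.5 CPM in the unheated pair, 20.2 and 20.7 CPM in heated controls and 32.3 and 29.7 CPM after knockdown. The heated controls lay below both other groups, whose values overlapped. Heat left 62.6% of the unheated level (log2 fold change -0.68 ± 0.09, edgeR adjusted p = 7.16e-07), and the knockdown was 1.52-fold above heated controls (0.60 ± 0.09, edgeR adjusted p = 3.53e-06). These contrasts share the heated control libraries, so their opposite signs are not independent. Against unheated controls the knockdown had a log2 fold change of -0.07 with a 95% interval from -0.24 to 0.09 (edgeR adjusted p = 0.432). SHLD2 has near-identical copies in the table, and how reads shared with them were counted is not given in the sources used here. SHLD2P1, SHLD2P2 and SHLD2P3 each had at most 10 counts in a library, against 262 to 536 for SHLD2. With the copies summed into SHLD2 the log2 fold changes were -0.68 in heat shock and 0.62 in the knockdown. So few counts could hardly move these values, and the sum cannot restore shared reads that the counting may have left out. GLUD1, which overlaps the SHLD2 span at its 5′ end on the opposite strand, moved the other way, by 0.18 with heat and -0.14 in the knockdown (edgeR adjusted p = 0.00542 and 0.0251).

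MAD2L2, which encodes the REV7 subunit of shieldin and also serves the translesion polymerase zeta, rose in the knockdown. MAD2L2 (ENSG00000116670, chromosome 1, 11674480 to 11691830) was at 78.7 and 74.1 CPM in the unheated pair, 80.5 and 81.6 CPM in heated controls and 96.7 and 103 CPM after knockdown. The knockdown libraries were above all 4 controls. The log2 fold change was 0.30 ± 0.06 against heated controls (edgeR adjusted p = 6.77e-05) and 0.39 ± 0.06 against unheated controls (edgeR adjusted p = 1.60e-06), and in heat shock it was 0.09 with a 95% interval from -0.03 to 0.20 (edgeR adjusted p = 0.238). DRAXIN, on the opposite strand across the 5′ part of the MAD2L2 span, had between 63 and 114 counts per library against at least 1046 for MAD2L2.

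SHLD1 and SHLD3, the small shieldin subunits, were measured with few counts. SHLD1 (ENSG00000171984, chromosome 20, 5750193 to 5864395), which binds SHLD2, had 21 and 25 counts in the unheated pair, 19 and 25 in heated controls and 22 and 17 in the knockdown, or 1.18 to 1.79 CPM. All groups overlapped, and its 95% interval in the knockdown contrast ran from -0.96 to 0.44 on the log2 scale (edgeR adjusted p = 0.545). SHLD3 (ENSG00000253251, chromosome 5, 65625027 to 65630928), which joins the complex to RIF1, had 96 and 58 counts in the unheated pair, 59 and 47 in heated controls and 53 and 50 in the knockdown. The unheated libraries differed 1.62-fold from each other in CPM, the widest gap between replicates among the members. Its log2 fold change was -0.31 in heat shock, -0.13 in the knockdown and -0.44 for the knockdown against unheated controls (edgeR adjusted p = 0.277, 0.68 and 0.0945). Without unheated replicate 2 it was called lower in heat shock (-0.63, edgeR adjusted p = 0.046) and against unheated controls (-0.76, edgeR adjusted p = 0.0103). Without unheated replicate 1 the values were 0.08 and -0.06 (edgeR adjusted p = 0.861 and 0.88), so its direction with heat rests on 1 library. SHLD3 begins at the same base as TRAPPC13 on the same strand, so reads near that start could belong to either gene. TRAPPC13 fell in the knockdown, from 163 and 187 counts to 123 and 121 (log2 fold change -0.60, edgeR adjusted p = 3.26e-04).

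**Figure D2:**
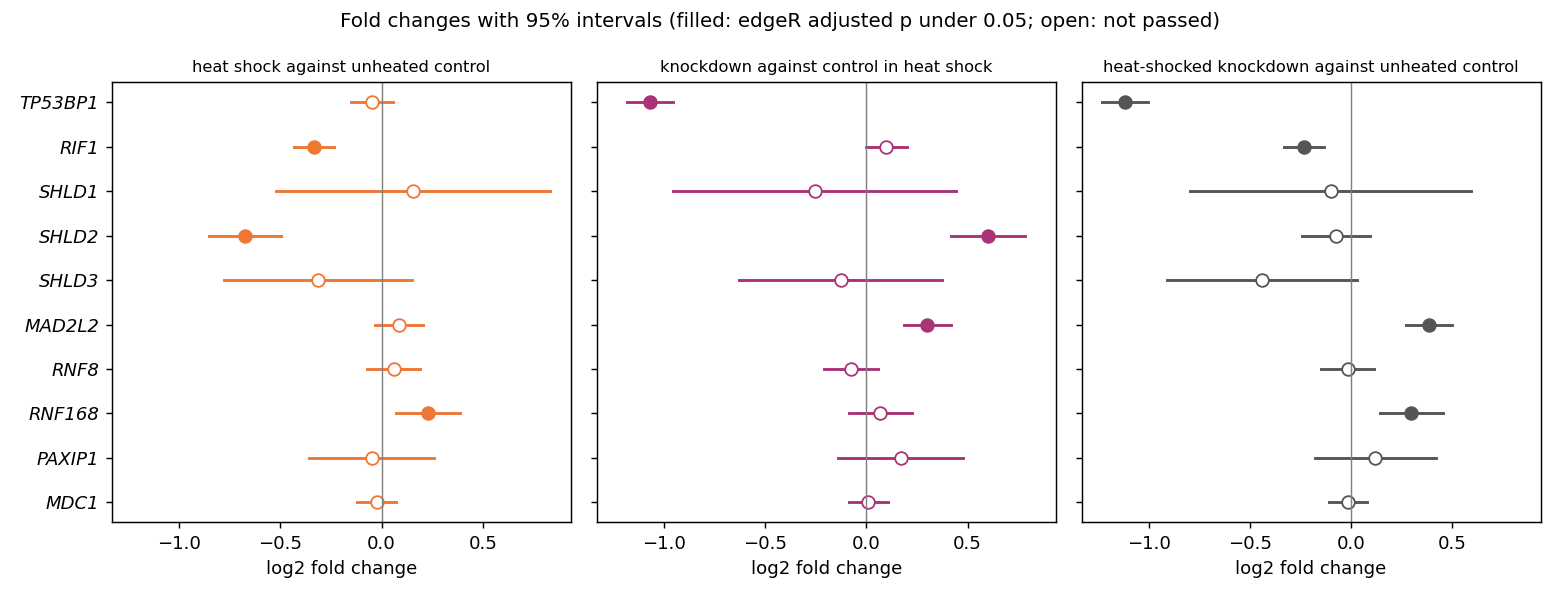
Log2 fold change (horizontal axis) of each gene in the 3 comparisons, with the 95% interval from the SE and the moderated degrees of freedom (lines) and filled points where edgeR's adjusted p was under 0.05. The intervals of SHLD1 and SHLD3 are the widest, and TP53BP1 is filled at -1.07 and -1.12 in the comparisons that involve the knockdown.

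Of the 3 members that act ahead of 53BP1, RNF168 passed the test in heat shock and MDC1 and RNF8 passed it in no comparison. MDC1, the adaptor that reads phosphorylated H2AX (ENSG00000137337, chromosome 6, 30699807 to 30717281), was at 240 and 237 CPM in the unheated pair, 230 and 239 CPM in heated controls and 230 and 242 CPM in the knockdown. Its groups overlapped in every comparison, and its 95% interval in heat shock ran from -0.12 to 0.07 (log2 fold change -0.02, edgeR adjusted p = 0.693). In the knockdown MDC1 had a log2 fold change of 0.01 (95% interval -0.09 to 0.10, edgeR adjusted p = 0.883). The antisense gene MDC1-AS1 had between 2 and 9 counts per library. RNF8, the ligase that follows MDC1 (ENSG00000112130, chromosome 6, 37353983 to 37394734), was at 56.1 and 58.7 CPM in the unheated pair, 59.3 and 60.3 CPM in heated controls and 59.2 and 54.3 CPM in the knockdown. Its log2 fold changes of 0.06 in heat shock and -0.08 in the knockdown did not pass (edgeR adjusted p = 0.477 and 0.324), and the 95% intervals ran from -0.07 to 0.19 and from -0.21 to 0.06.

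RNF168, the ligase that writes the mark read by 53BP1, was called slightly higher with heat. RNF168 (ENSG00000163961, chromosome 3, 196468783 to 196503768) was at 34.7 and 32.1 CPM in the unheated pair, 39.99 and 38.3 CPM in heated controls and 42.8 and 39.3 CPM in the knockdown. Both heated groups lay above the unheated libraries and overlapped each other. The log2 fold change was 0.23 ± 0.08 in heat shock (edgeR adjusted p = 0.0173) and 0.30 ± 0.08 for the knockdown against unheated controls (edgeR adjusted p = 0.0014), and between the heated groups it was 0.07 (edgeR adjusted p = 0.452). The call in heat shock alone was lost without unheated replicate 2 (edgeR adjusted p = 0.205), without heated control replicate 1 (0.116), with scaling by library size only (0.0906) and with the DESeq2 Wald test (0.097). PAXIP1, which encodes the PTIP arm of 53BP1 (ENSG00000157212, chromosome 7, 154943690 to 155003411), was at 12.6 and 9.19 CPM, then 11.7 and 9.46 CPM, then 11.5 and 12.2 CPM in the same order of groups. Its groups overlapped in all comparisons, and the 95% interval in the knockdown ran from -0.14 to 0.48 (log2 fold change 0.17, edgeR adjusted p = 0.354). PAXIP1-AS2 and PAXIP1-DT, the noncoding neighbours on the opposite strand, had 22 to 51 and 14 to 32 counts per library. In the knockdown they were at -0.77 and 0.80 on the log2 scale (edgeR adjusted p = 0.0279 and 0.0438).

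In heat shock 1 of the 10 members rose, 2 fell and 7 did not pass, where 43.9% of all genes tested were called, 20.6% higher and 23.3% lower. In the knockdown against heated controls 2 rose, 1 fell and 7 did not pass, against 54.5% of all genes, 27.4% higher and 27.2% lower. In the knockdown against unheated controls 2 rose, 2 fell and 6 did not pass, against 62.2% of all genes, 31.1% in each direction. These comparisons share libraries pairwise. The share of members called was below that of all genes in each comparison, with 10 genes only, and the difference was not tested. The groups did not overlap for 6 members in heat shock, 5 in the knockdown and 4 in the knockdown against unheated controls, where 72.2%, 75.9% and 80.1% of all genes tested had groups that did not overlap. The median log2 fold change of the members was -0.04 in heat shock, 0.04 in the knockdown and -0.05 against unheated controls, beside -0.03, -0.0042 and -0.0043 over all genes tested. Scaled by library size only, the heat shock count was 0 higher and 2 lower.

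**Figure D3:**
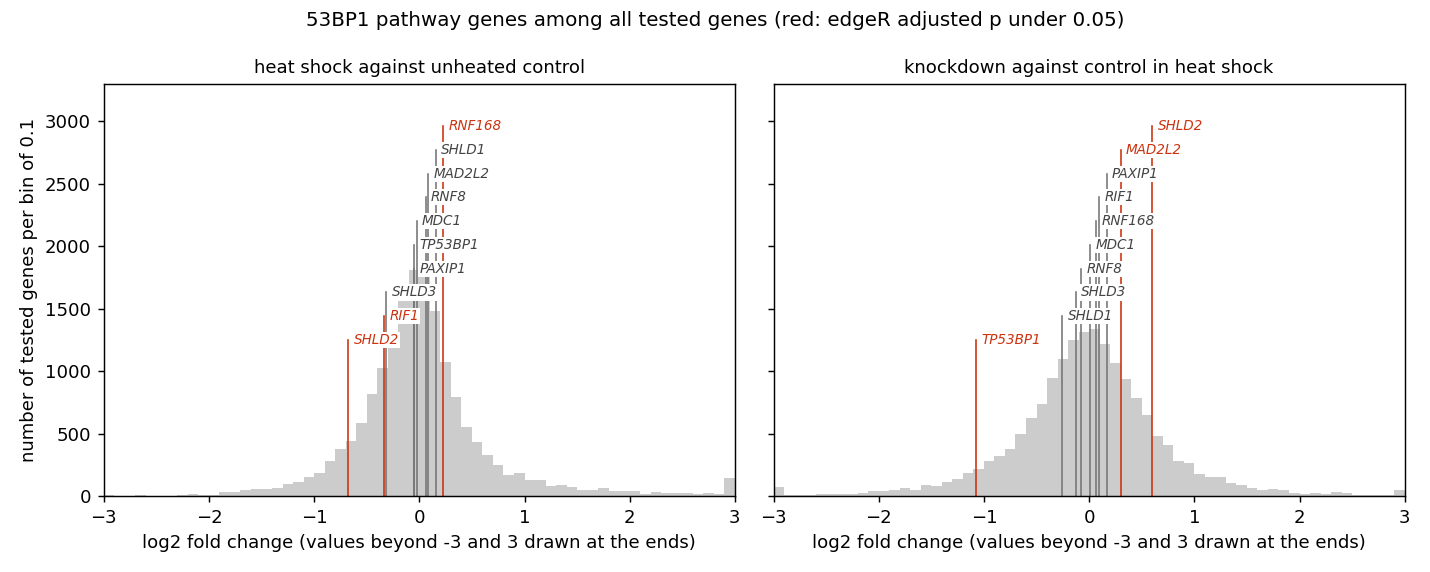
Number of tested genes (vertical axis) per bin of log2 fold change (horizontal axis), with a line at each member, red where edgeR's adjusted p was under 0.05. Most members lie near the centre of the distribution, SHLD2 lies at -0.68 in heat shock and 0.60 in the knockdown, and TP53BP1 at -1.07 in the knockdown.

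Levels can be compared between genes only per length, here as CPM per kilobase of the gene length in the table, as the counting tool wrote it. That length may differ from the length of the transcripts present, by unequal amounts between genes, so the order also depends on it. In unheated controls the order was MDC1 at 31.3 ± 0.283 CPM per kilobase (SD, n = 2), MAD2L2 at 14.1 ± 0.588, TP53BP1 at 10.2 ± 0.417, RNF8 at 8.75 ± 0.278, RIF1 at 8.25 ± 0.157, SHLD2 at 7.70 ± 0.388, RNF168 at 6.24 ± 0.348, SHLD3 at 2.81 ± 0.947, PAXIP1 at 1.13 ± 0.25 and SHLD1 at 0.671 ± 0.0911. RNF8, RIF1 and SHLD2 were neighbours separated by about the sum of their SDs (1.16 and 1 times that sum), so their order is uncertain. In the knockdown TP53BP1, at 4.68 ± 0.147 CPM per kilobase, came below RNF8, RNF168, SHLD2 and RIF1, which were at 8.65, 7.68, 7.31 and 7.01 and whose neighbours differed by less than the sum of their SDs. MDC1 and MAD2L2 kept the highest levels, at 31.0 ± 1.12 and 18.4 ± 0.822 CPM per kilobase. SHLD3, PAXIP1 and SHLD1 were the lowest in all groups, so the shieldin subunits themselves ranged from 0.625 for SHLD1 to 18.4 for MAD2L2 on this scale in the knockdown.

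**Figure D4:**
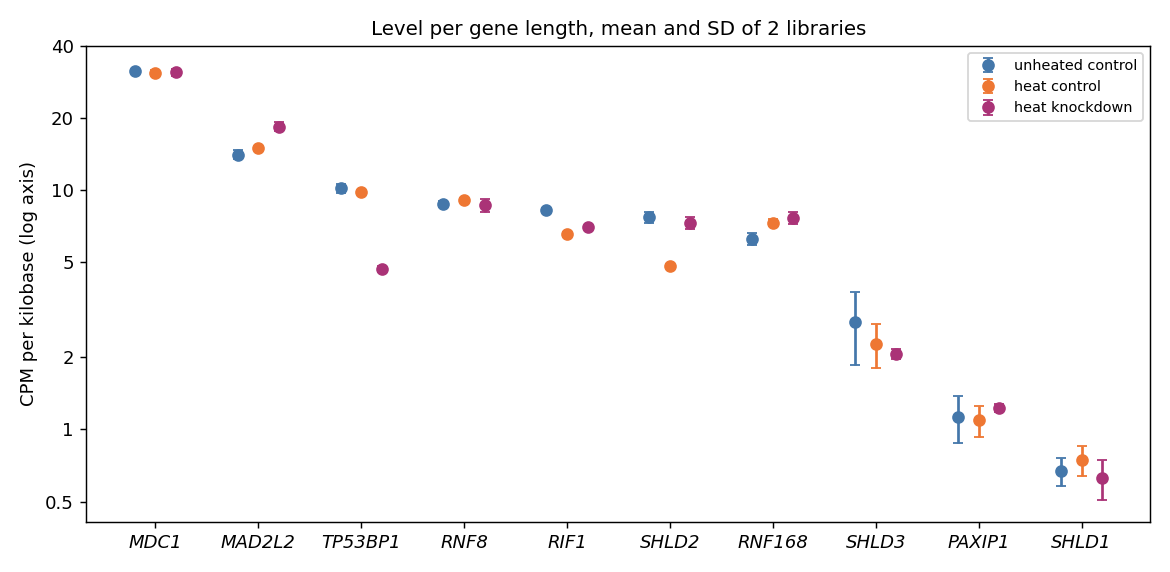
Level per kilobase (vertical axis, log scale) of the 10 genes in the 3 groups, as mean and SD of 2 libraries, ordered by the unheated level. MDC1 is the highest at 30.8 to 31.3 CPM per kilobase, and TP53BP1 drops from 9.84 to 4.68 between the heated groups.

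Among 11573 other genes averaging at least 5 CPM, likeness to a member was taken as the root mean square difference of log2 CPM over the 6 libraries after centring each gene. The 3 closest to TP53BP1 were TMEM255B (0.0295), the mitochondrial ribosomal protein gene MRPL51 (0.0393) and PIBF1 (0.0398), with knockdown log2 fold changes of -1.04, -1.12 and -1.10, and 111 genes were within 0.1. For SHLD2 they were ARHGEF1 (0.0451), RNF139 (0.0504) and TRIM24 (0.0522), with 87 genes within 0.1. RIF1 was closest to TNFRSF10B, ACTR1A and SLC39A11 (0.0183 to 0.0249), MAD2L2 to CDC34, AUP1 and CNIH4 (0.0147 to 0.0247), and RNF168 to CDK5RAP2, DNAJC2 and TXLNA (0.0181 to 0.0362). Between members the smallest difference was that of RNF8 and MDC1 (0.0741), followed by MAD2L2 and RNF168 (0.117). These differences between members cannot be set against those of the closest other genes. The closest other genes were the nearest of 11573 candidates, while each member had far fewer fellow members to be compared with. Whether members were more alike than other genes was not tested.

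Genes that place or read the chromatin marks, bind 53BP1 or regulate its recruitment went both ways. The list was not split by whether a gene acts before or after 53BP1. With heat 8 of the 22 genes rose, 6 fell and 8 were not called, beside 20.6% of all genes called higher and 23.3% lower. The median log2 fold change was -0.01. DYNLL1, a dynein light chain that binds 53BP1, rose from 296 ± 2.87 to 472 ± 8.4 CPM (0.67 ± 0.04, edgeR adjusted p = 6.62e-12). KDM4A, a demethylase whose Tudor domains also bind the histone mark read by 53BP1, rose by 0.63 and L3MBTL1, another reader of methylated histone H4, by 0.53, while H2AX fell by 0.50. In the knockdown 6 rose, 8 fell and 8 did not pass (median -0.06), beside 27.4% of all genes called higher and 27.2% lower. KMT5A, the methyltransferase that starts the H4 lysine mark read by 53BP1, fell from 77.0 ± 0.989 to 35.1 ± 0.122 CPM (-1.13 ± 0.07, edgeR adjusted p = 4.93e-13). RNF169, which competes with 53BP1 for the ubiquitin mark of RNF168, fell from 109 ± 5.77 to 55.5 ± 1.1 CPM (-0.98 ± 0.06, edgeR adjusted p = 7.49e-13). L3MBTL1 fell by 0.50, and RAD50 rose by 0.76 from 4.26 ± 0.26 CPM. Against unheated controls the knockdown had 5 higher, 6 lower and 11 not passing (median 0.02), beside 31.1% of all genes called in each direction. KMT5A was at -0.83, H2AX at -0.80, RNF169 at -0.63 and RAD50 at 0.52.

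Of 19 partners, effectors and regulators around 53BP1, RIF1, PTIP and shieldin 18 were tested, TEN1 being below the filter. The list was not split by whether a gene aids or counters shieldin. In the knockdown 9 fell, 3 rose and 6 were not called, beside 27.2% of all genes called lower and 27.4% higher, with a median log2 fold change of -0.18 against -0.0042 over all genes tested. PPP1CC, a catalytic subunit of the phosphatase PP1 that RIF1 binds, fell from 119 ± 8.72 to 53.5 ± 1.21 CPM (-1.16 ± 0.06, edgeR adjusted p = 7.37e-14). PWWP3A, a chromatin protein that binds 53BP1, fell by 0.55. POLA2, a subunit of the polymerase alpha that fills in ends for shieldin, rose from 4.51 ± 0.72 to 9.10 ± 0.17 CPM (1.01 ± 0.16, edgeR adjusted p = 1.46e-05), and REV3L, the catalytic subunit of polymerase zeta, to which REV7 also belongs, rose by 0.51. In heat shock 4 rose, 5 fell and 9 did not pass (median -0.01), beside 20.6% of all genes called higher and 23.3% lower. The largest changes there were falls of POLA2 by 0.80, CHAMP1, a REV7-binding zinc finger protein, by 0.55, CTC1, of the CST complex that shieldin recruits, by 0.48 and the primase PRIM1 by 0.39. Against unheated controls 3 were higher, 9 lower and 6 did not pass (median -0.14), beside 31.1% of all genes called in each direction. PPP1CC was at -1.15, PRIM1 at -0.86, CTC1 at -0.83 and CHAMP1 at -0.65.

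A list of 18 genes of end resection, BRCA1 complexes and related factors was also followed, of which USP44 was below the filter. The list was not split by whether a gene favours or opposes the 53BP1 side. With heat 10 of the 17 tested fell, 2 rose and 5 were not called, beside 23.3% of all genes called lower and 20.6% higher, with a median log2 fold change of -0.20 against -0.03 over all genes tested. BARD1, the partner of BRCA1, fell from 21.3 ± 0.173 to 11.6 ± 0.368 CPM (-0.88 ± 0.11, edgeR adjusted p = 2.88e-07), ABRAXAS1 fell by 0.36, and the resection nuclease EXO1 rose by 0.57. In the knockdown 9 rose, 4 fell and 4 did not pass, with a median of 0.16, where 27.4% of all genes were called higher and 27.2% lower. BRCA2, a mediator of homologous recombination, rose from 41.0 ± 0.948 to 81.6 ± 2.78 CPM (0.99 ± 0.06, edgeR adjusted p = 3.44e-12), UIMC1, which tethers BRCA1 to ubiquitin, rose by 0.95 and RPA2, which coats single-stranded DNA, by 0.69. Against unheated controls 6 were higher, 6 lower and 5 did not pass (median -0.02), beside 31.1% of all genes called in each direction. BRCA2 was at 1.04, UIMC1 at 0.67 and RBBP8, the resection factor CtIP, at 0.55. The lists are described by counts and medians, no difference between them was tested, and the heat shock and knockdown contrasts share the heated control libraries.

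**Figure D5:**
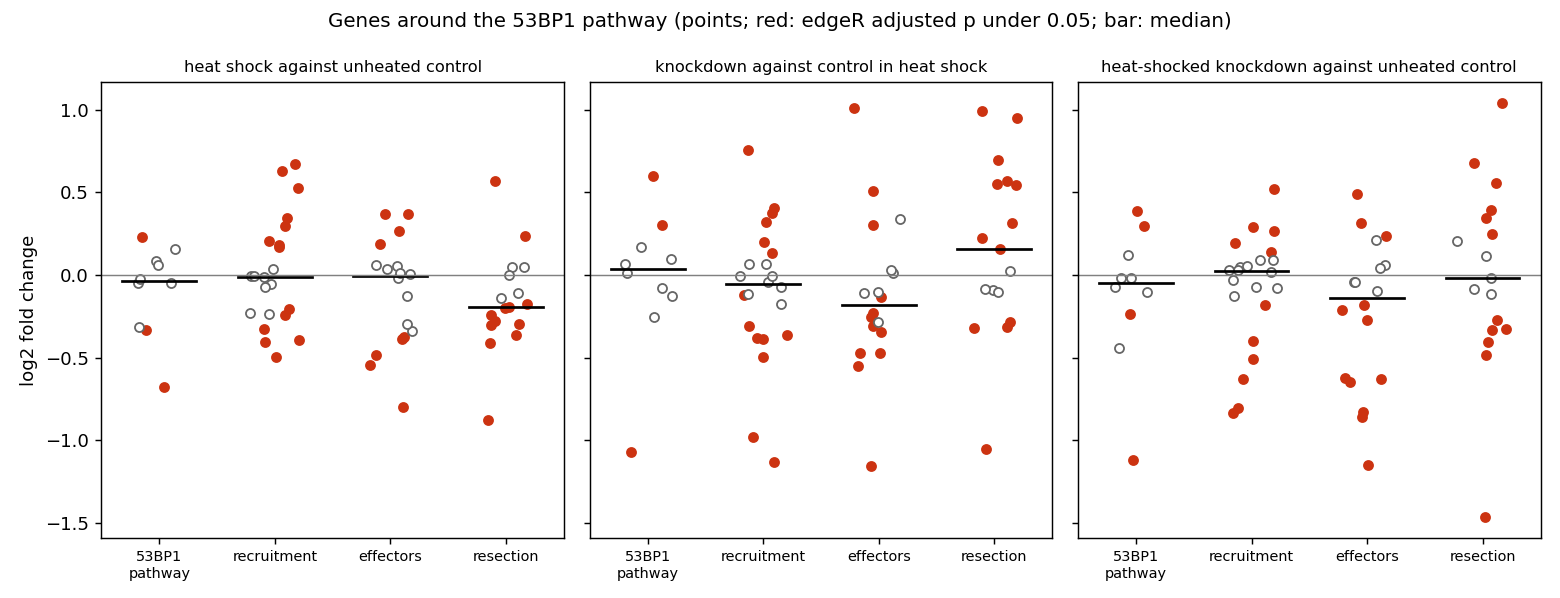
Log2 fold change (vertical axis) of the 10 members and of the tested genes of the 3 surrounding lists in each comparison, with red points where edgeR's adjusted p was under 0.05 and a bar at the median. In the knockdown the median is -0.18 for the list of partners and effectors and 0.16 for the resection and BRCA1 list.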

How the data were processed

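RNA-seq of U2OS cells was analysed in 6 libraries of 3 groups. The deposited file gives raw read counts by gene, and per the submitters' processing notes the tools included HISAT2 2.2.1, featureCounts 2.0.2 and DESeq2 1.36.0 on GRCh38, without their order. Which annotation and strand setting were used, and what was done with reads of several matches, is not given in the sources used here. Symbols were found for 62666 Ensembl identifiers. The other 521 took at most 0.0698% of a library's counts. Positions and promoters are those of RefSeq, GRCh38.p14, and the deposited gene length served only for levels per kilobase.

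All 6 libraries entered a single fit by group with edgeR 4.0.16 under R 4.3.3 (robust quasi-likelihood F test after TMM scaling and filterByExpr at its minimum count of 10), with 3 residual degrees of freedom. The members and gene lists were chosen with earlier results of these data known. All members were named, and of each list and comparison the 4 called genes of at least 5 CPM with the largest change, plus the 3 genes most like TP53BP1 and like each member called in 2 or more comparisons. One listed gene that met this rule is counted but not reported here. On simulated counts for the knockdown comparison, 50 genes were changed at each fold and 17090 were left unchanged, with 16824 genes in the fit. There 34% of the 1.25-fold changes were found, as were 60% at 1.5-fold and 94% at 2-fold. For genes of at least 20 CPM (20, 27 and 33 genes) these shares were 85%, 96.3% and 100%. Far fewer genes changed there than were called in the data, which makes the adjusted threshold stricter, so the shares may differ from those of the fit used. DESeq2 1.42.0, limma voom 3.58.1, other scalings, filters and fits, and leaving out each library were tried as alternatives.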

Additional observations from a re-analysis of the deposited data

How the results depend on the processing

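There were 30 member fold changes (10 genes in 3 comparisons) and 13 alternatives, with a further one for SHLD2. That further one, with the copies summed, could hardly differ from the main fit. Of the 393 values 387 kept their side of the threshold. None that was called by either fit reversed. The 4 calls lost were those of RNF168 in heat shock and the 2 gained those of SHLD3 without unheated replicate 2, all given with the genes. The TP53BP1 change in the knockdown ranged from -1.11 to -1.04, that of SHLD2 in heat shock from -0.75 to -0.63 and that of MAD2L2 in the knockdown from 0.26 to 0.34. With library size alone 36.5% rather than 46.9% of all genes called in heat shock were higher. With both directions together, all counts of called members and genes stayed within 1.5 times the main ones. By direction, DESeq2 called 2514 genes lower in heat shock where edgeR called 4033, and 0 rather than 1 member was called higher in heat shock with DESeq2, with library size alone, without unheated replicate 2 and without heated control replicate 1. Leaving out 1 library gave 2 to 3 members in heat shock, 3 in the knockdown and 4 to 5 against unheated controls.

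No shared deviation of same-numbered libraries was seen: they correlated at -0.0298, -0.06 and 0.0547 over 11574 genes. Such values cannot show whether same-numbered libraries were prepared together. With a replicate block 7494, 9372 and 10684 genes were called in heat shock, knockdown and knockdown against unheated controls (7592, 9425 and 10756 without it), and 3, 3 and 4 members, as without it. Depth limits SHLD1 and SHLD3, the members with fewer than 100 counts in every library.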
